A study of Mus musculus with 4 samples.

Results

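The 10 genes described here encode the main secreted proteins of intestinal goblet cells (Muc2, Fcgbp, Clca1, Zg16, Tff3, Spink4 and Retnlb), a protein that folds mucin before it is secreted (Agr2), and a pair of transcription factors of the goblet cell lineage (Atoh1 and Spdef). They were taken by their symbol from the gene names of the array, which held 37074 names, of which 19325 were tested. The 10 genes had 12 probes: Muc2 and Fcgbp had 2 each and the other 8 genes had 1 each. All 12 probes lay well above background on all 4 arrays, so no member was lost to the filter on dim probes.

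Total RNA was prepared from entire colons of C57BL/6 mice on day 5 of drinking dextran sulphate sodium (DSS), an agent toxic to the epithelium that is used to induce colitis. The mutant mice were Junb fl/fl Cd4-Cre (2 arrays), and the control mice were Junb fl/fl without the Cre (2 arrays). Both groups were given DSS, and no colon without DSS was among these 4 arrays, so the values compare genotypes within colitis and do not show what DSS itself does to mucus genes. The Cd4-Cre transgene recombines floxed DNA in the T cell lineage, so goblet cells are not the cells in which Junb is removed. The study used these arrays to characterise the more severe DSS colitis of the mutant mice. The labels give neither the age nor the sex of the mice and do not say that each array is 1 mouse, so the p-values measure the spread between these arrays.

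Goblet cells are secretory cells of the intestinal epithelium that arise from crypt progenitors in which the Notch signal is low and Atoh1 is switched on. They store the gel-forming mucin Muc2 in granules and release it as a polymer that swells into the mucus layer of the colon, which keeps bacteria away from the epithelium. Mice without Muc2 develop colitis on their own, and depletion of stored mucus is a classic feature of DSS-treated colon.

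The probes that carry the comparison are printed 5′ to 3′ in the sense of the transcript, because 2 probes of Muc2 gave different answers, Fcgbp had the largest difference of the 10 genes, Zg16 also had both mutants below both controls, and the measured difference of Spink4 was nearest to 0. Coordinates are those of the array design on the mouse build mm9. Each of the 4 probes printed whole is open in at least 1 reading frame, as are all 12 member probes. Of the second Muc2 probe the last 25 bases are shown (chr7:148940571-148940595, plus strand), with the poly(A) signal AATAAA in capitals. That signal marks the end of a transcript and was found in 3 of the 12 probes, those of Tff3, Spdef and this Muc2 probe. The Spink4 probe is 60 bases long but spans 2125 bases of the genome, so it crosses an exon junction.
Muc2, dimmer probe (chr7:148883009-148883068, plus strand): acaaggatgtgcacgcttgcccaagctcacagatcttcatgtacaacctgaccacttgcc
Muc2, brighter probe, 3′ end: tccgatAATAAActcaggcatagcc
Fcgbp, brighter probe (chr7:28905517-28905576, plus strand): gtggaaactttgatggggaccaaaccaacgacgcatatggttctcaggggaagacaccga
Zg16 (chr7:134193837-134193896, minus strand): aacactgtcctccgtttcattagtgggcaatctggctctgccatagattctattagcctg
Spink4 (chr4:40876206-40878330, plus strand): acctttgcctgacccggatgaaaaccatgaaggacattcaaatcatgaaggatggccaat

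Values below are log2 of the processed spot intensity minus the log2 75th percentile of the same array, so 0 is the 75th percentile of that array. A difference is the mean of the mutant arrays minus the mean of the control arrays, with its limma standard error (SE, n = 2 and 2). Levels of different probes are not comparable, since each probe binds with its own efficiency. The 75th percentile signal was 310.9 and 268.5 in the mutants and 330 and 328.6 in the controls, and no spot was saturated. Arrays correlated at 0.976 to 0.984 over all genes tested, with the lowest value between the 2 controls. Junb itself read 4.44 and 4.47 in the mutants and 4.23 and 4.39 in the controls, which in whole tissue is no check of a deletion in T cells. Xist, expressed from the inactive X chromosome, was high in replicate 1 of both genotypes (-0.77 in the mutant and -0.55 in the control) and near background in replicate 2 (-6.43 in the mutant and -6.13 in the control). The Y-linked gene Eif2s3y had the opposite pattern, at -6.20 and -0.11 in mutant replicates 1 and 2 and at -6.08 and 0.19 in control replicates 1 and 2. By these genes each genotype held 1 female and 1 male sample, so differences are also given within replicate number 1 and within replicate number 2.

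Most of the 10 goblet cell genes were not called between the genotypes, and Fcgbp read lower in the mutants. Fcgbp was 1.54-fold higher in the controls, while the measured differences of Spink4, Agr2 and Spdef were within 0.06 of 0 on the log2 scale. Muc2 read -0.02 on the brighter of its probes and -0.56 on the other. None of the 10 genes passed limma's test at an adjusted p of 0.05 (Benjamini-Hochberg over 19325 genes), and 0.0% of all genes did. At an unadjusted p of 0.05, 1 of 10 members was lower and 0 were higher, where 9.29% of all genes were called, 3.98% lower and 5.31% higher. This share of members is close to the share of all genes, so as a group the 10 genes were not called more often than others. The count over all genes was 1796 with all arrays and 864 without mutant replicate 1. The median difference of the 10 genes was -0.08, and that of all genes tested was 0.02. It was -0.18 within replicate number 1 and -0.02 within replicate number 2.

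**Figure D1:**
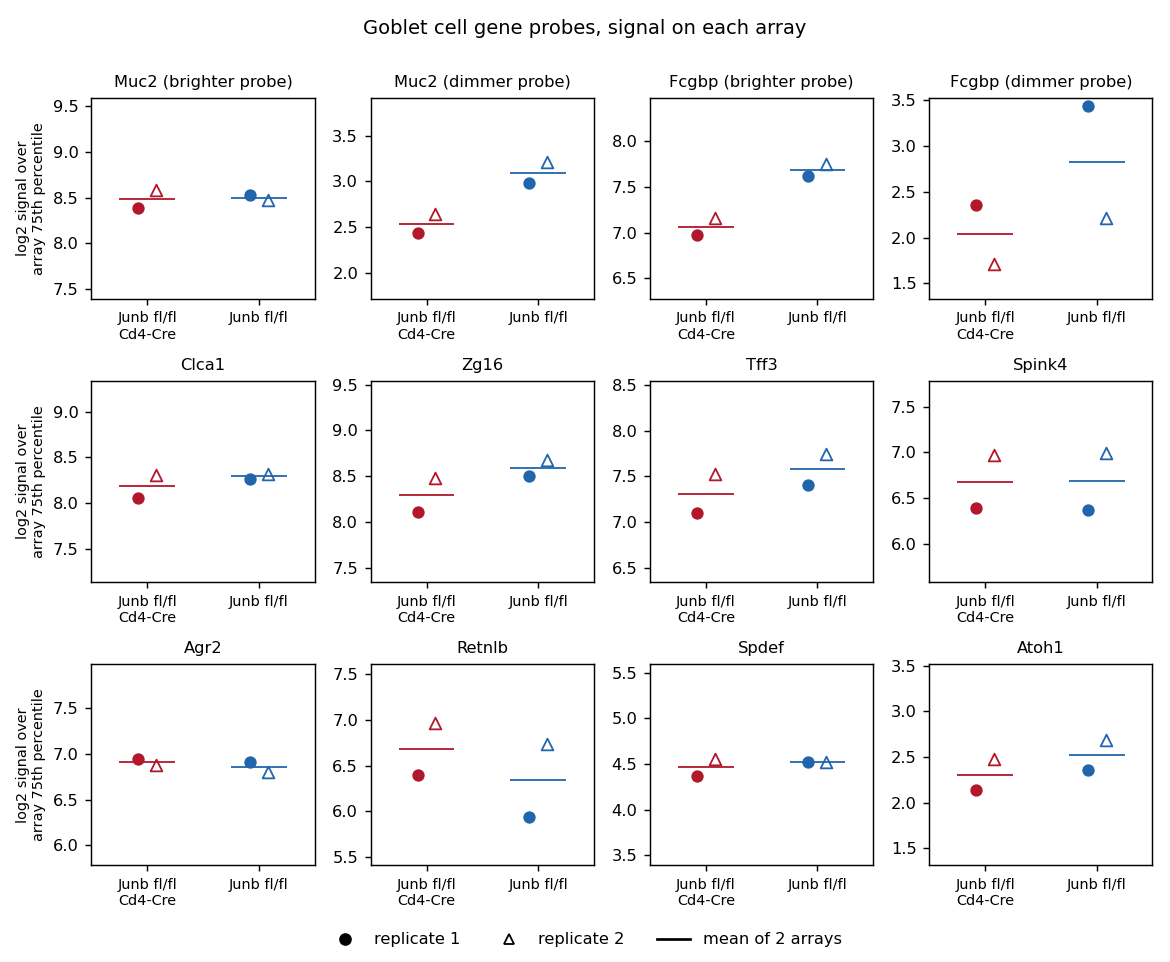
Each panel plots 1 probe of a goblet cell gene: log2 signal over the array's 75th percentile (y axis) in the 2 Junb fl/fl Cd4-Cre arrays (left, red) and the 2 Junb fl/fl control arrays (right, blue). Filled circles are replicate 1, open triangles replicate 2 and lines the mean of 2 arrays. Both mutants lie below both controls for Fcgbp (brighter probe), Muc2 (dimmer probe) and Zg16, and the points of the other 9 panels overlap between genotypes.

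Among the proteins of the mucus gel, Fcgbp showed the largest difference of the 10 genes. Fcgbp encodes a large protein with repeated von Willebrand D domains that is stored and secreted together with Muc2. Its brighter probe read 6.97 and 7.16 in the mutants, against 7.62 and 7.75 in the controls. Both mutants lay below both controls, as they did for 2 of the 10 members (Fcgbp and Zg16) and for 17.6% of all genes. Both mutants lay above both controls for 0 of the 10 and for 25.7% of all genes. For Fcgbp the difference was -0.62 ± 0.12 (95% interval -0.94 to -0.31, unadjusted p = 0.0038, adjusted p = 0.418). It was -0.65 within replicate number 1 and -0.59 within replicate number 2. The signals before scaling were 38948 and 38469 in the mutants and 64895 and 70976 in the controls. Over 13 other settings the difference of Fcgbp stayed between -0.82 and -0.52, and its unadjusted p stayed under 0.05 in 13 of 13, while its adjusted p ranged between 0.0689 and 0.995.

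The dimmer Fcgbp probe (chr7:28873024-28873083), 32.5 kb upstream of the brighter one, also read lower on average. This probe is the only member probe whose transcript RefSeq does not pair with the member's symbol. It had 2.35 and 1.72 in the mutants and 3.44 and 2.21 in the controls, a difference of -0.79 ± 0.44 (unadjusted p = 0.129, adjusted p = 0.685 over 28897 probes). It was -0.18 without control replicate 1, -0.48 without mutant replicate 2 and -1.41 without control replicate 2, and its unadjusted p was under 0.05 in 2 of 12 other settings. Mutant replicate 1 lay above control replicate 2, so the groups overlapped on this probe. Replicate 1 was the higher array in both genotypes here and the lower one on the brighter probe. Because the RNA came from whole tissue, fewer goblet cells and less Fcgbp RNA in each goblet cell cannot be told apart, and the same holds for every gene below.

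Muc2, the gel-forming mucin that makes up the bulk of colonic mucus, gave different answers on its 2 probes. The brighter probe, which stands for the gene, read 8.38 and 8.59 in the mutants and 8.53 and 8.47 in the controls, a difference of -0.02 ± 0.12 (95% interval -0.33 to 0.30, adjusted p = 0.974). The groups overlapped, with mutant replicate 2 the highest array and mutant replicate 1 the lowest. The dimmer probe, 57.5 kb upstream, read 2.43 and 2.64 in the mutants and 2.98 and 3.21 in the controls. On it both mutants lay below both controls, by -0.56 ± 0.14 (95% interval -0.91 to -0.21, unadjusted p = 0.00912, adjusted p = 0.484). Within replicate numbers 1 and 2 the difference of this probe was -0.55 and -0.57, and its control mean was 1.47-fold higher.

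The difference of the dimmer Muc2 probe was thus lower than that of the brighter one by 0.54 on the log2 scale, in the same 4 RNA samples. Of the 12 member probes, 2 were lower at an unadjusted p of 0.05 (Fcgbp brighter and Muc2 dimmer), where 3.64% of all 28897 probes were lower and 8.22% were called in either direction. The unadjusted p of the dimmer Muc2 probe stayed under 0.05 in 11 of 12 other settings and was 0.0592 without mutant replicate 1. With the mean of both probes standing for the gene, the Muc2 difference was -0.29 (unadjusted p = 0.065). What sets the 2 probes apart was not tested. Both are open in 2 reading frames, and only the downstream one holds the poly(A) signal shown above.

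Clca1, a secreted metalloprotease that processes Muc2 in the gel, was not called. It read 8.05 and 8.31 in the mutants and 8.26 and 8.32 in the controls, a difference of -0.11 ± 0.13 (95% interval -0.44 to 0.22, adjusted p = 0.814). Mutant replicate 1 was the low array, and the other 3 lay close together. The accession of this probe is that of the RefSeq gene now named Clca1. Its neighbours in the family, which share sequence with it, read differences of 0.62 ± 0.31 (Clca3b), 0.36 ± 0.41 (Clca3a2) and -0.10 ± 0.11 (Clca4a), none of them called.

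Zg16, a lectin-like protein that binds Gram-positive bacteria and holds them in the outer mucus, was the other gene with both mutants below both controls. It read 8.10 and 8.48 in the mutants and 8.50 and 8.68 in the controls. The lower control exceeded the higher mutant narrowly, and the difference of -0.30 ± 0.17 did not pass either threshold (unadjusted p = 0.135, adjusted p = 0.624, 95% interval -0.72 to 0.13). The gap between replicates was 0.38 in the mutants and 0.18 in the controls.

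**Figure D2:**
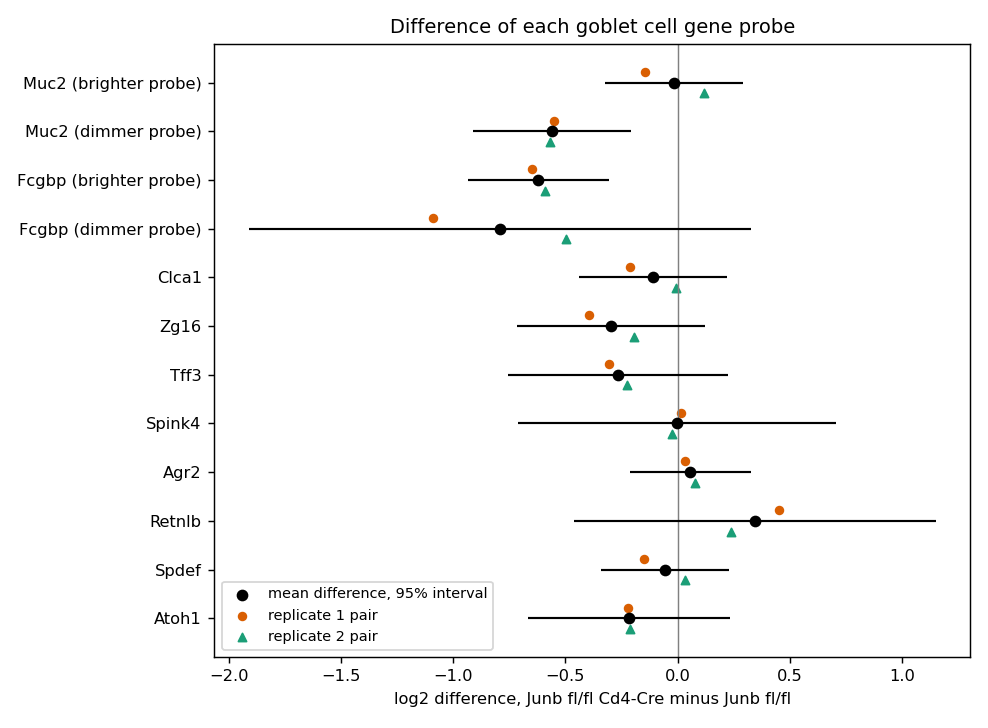
The log2 difference, Junb fl/fl Cd4-Cre minus Junb fl/fl (x axis), is drawn for each of the 12 probes (y axis): the black point is the mean difference with its 95% limma interval, the orange circle the replicate 1 pair and the green triangle the replicate 2 pair. The intervals of Muc2 (dimmer probe) and Fcgbp (brighter probe) lie below 0, and the other 10 include 0.

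Among the small secreted proteins, none was called. Tff3 and Retnlb each had 1 sign within both replicate numbers, as did 7 of the 10 members and 12642 of the 19325 genes tested. Tff3, a trefoil peptide that helps the epithelium to close wounds, read 7.10 and 7.52 in the mutants and 7.41 and 7.75 in the controls, a difference of -0.26 ± 0.19 (adjusted p = 0.688). The lower array of each genotype was replicate 1, and the genotypes overlapped. Within replicate numbers the differences were -0.31 and -0.22.

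Spink4, of the Kazal family of serine protease inhibitors, read 6.39 and 6.97 in the mutants and 6.37 and 6.99 in the controls. The 2 genotypes were almost superimposed, with a difference of -0.00 ± 0.28, but the wide interval (-0.72 to 0.71) comes from the gap between replicates of 0.58 in the mutants and 0.62 in the controls. Retnlb, an antibacterial resistin-like protein induced by bacteria and by type 2 cytokines, had the highest measured difference of the members. It read 6.39 and 6.97 in the mutants and 5.94 and 6.73 in the controls, and the groups overlapped. The difference was 0.34 ± 0.32 (95% interval -0.47 to 1.16, adjusted p = 0.753), with 0.45 and 0.24 within replicate numbers 1 and 2. It was 0.74 without control replicate 2 (unadjusted p under the threshold, adjusted p not) and -0.05 without control replicate 1.

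Agr2, a protein disulphide isomerase of the endoplasmic reticulum that mice need to make Muc2, was not called and had the smallest SE of the members. It read 6.94 and 6.88 in the mutants and 6.91 and 6.80 in the controls, a difference of 0.06 ± 0.11 (95% interval -0.22 to 0.33, adjusted p = 0.891). The sign of this small difference turned with quantile normalization (-0.17) and with scaling on epithelial markers (-0.04).

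The lineage factors were not called either. Atoh1, the basic helix-loop-helix factor without which the gut forms no secretory cells, read 2.14 and 2.48 in the mutants and 2.36 and 2.69 in the controls. The difference was -0.22 ± 0.18 (95% interval -0.67 to 0.24, adjusted p = 0.718), with the genotypes overlapping. Spdef, an ETS factor that acts after Atoh1 in goblet cell maturation, read 4.37 and 4.55 in the mutants and 4.52 and 4.52 in the controls, a difference of -0.06 ± 0.11 (95% interval -0.34 to 0.23, adjusted p = 0.892).

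For Fcgbp, with a lower reading, and Muc2, with a steady one on its 3′ probe, the promoters were searched for the E-box, the short sequence CANNTG that Atoh1 and other basic helix-loop-helix factors bind. RefSeq promoters (assembly GRCm38.p6, not the build of the probes) were matched by symbol for 5 of the 10 genes (Muc2, Fcgbp, Agr2, Atoh1 and Spdef). In the 250 bases before the start, CANNTG occurred 3 times in Fcgbp, 2 times in Muc2, 1 time in Agr2 and 0 times in Atoh1 and Spdef, and 66.2% of 32851 promoters of the same length held it. The form CAGCTG, which is contained in CANNTG and reads the same on both strands, occurred 1 time each in Fcgbp and Muc2, and 13% of promoters held it. Both genes thus held a motif that is common, and a match is not evidence of binding. The last 150 bases before the start are shown with CANNTG in capitals.
Fcgbp (chr7:28071086-28071235, plus strand): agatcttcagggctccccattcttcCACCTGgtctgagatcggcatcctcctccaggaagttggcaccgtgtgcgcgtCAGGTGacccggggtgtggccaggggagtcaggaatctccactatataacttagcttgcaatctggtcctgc
Muc2 (chr7:141690190-141690339, plus strand): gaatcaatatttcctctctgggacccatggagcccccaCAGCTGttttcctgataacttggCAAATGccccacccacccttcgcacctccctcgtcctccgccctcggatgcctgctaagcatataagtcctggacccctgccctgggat

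For most members the 2 arrays of 1 genotype stood further apart than the 2 genotypes did. In 8 of 10 genes the mean gap between replicates exceeded the size of the difference between genotypes, the exceptions being Fcgbp and Zg16. Replicate 2 read above replicate 1 in both genotypes for 7 of 10 members, against 36.8% of all genes. For 5 of 10 members both replicate 2 arrays lay above both replicate 1 arrays, against 21.6% of all genes. The gap was widest for Retnlb, at 0.57 in the mutants and 0.79 in the controls, and for Spink4. Agr2 went the other way, with -0.07 in the mutants and -0.11 in the controls.

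**Figure D3:**
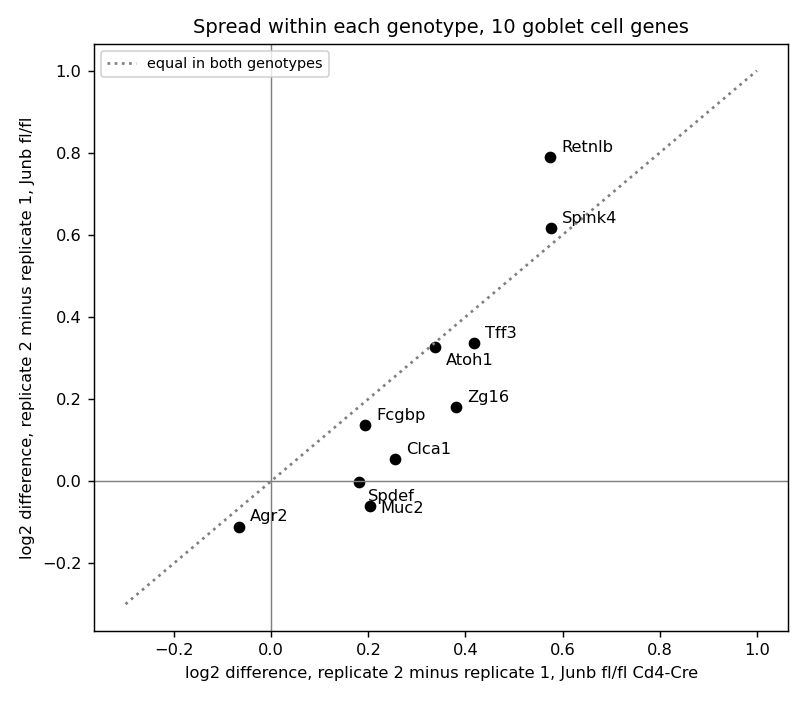
For each of the 10 genes, replicate 2 minus replicate 1 on the log2 scale is plotted in Junb fl/fl Cd4-Cre (x axis) and in Junb fl/fl control (y axis); the dotted line marks equal gaps. The genes Fcgbp, Clca1, Zg16, Tff3, Atoh1, Spink4 and Retnlb lie above 0 on both axes, and Retnlb has the widest gap, 0.57 in the mutants and 0.79 in the controls.

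By Xist and Eif2s3y the replicate number goes with the sex of the sample. Of the tested genes that mark position along the colon, Hoxa13, Hoxb13, Hoxd12 and Hoxd13 read higher in replicate 1 of both genotypes. Hoxd12 was well above background on only 2 arrays. Hoxd10 was higher in replicate 1 of the mutants (-2.58, against -2.83 in replicate 2) but not of the controls (-2.19, against -2.04). Hoxb13, a homeobox gene of the distal colon, read 4.43 and 1.56 in mutant replicates 1 and 2 and 4.82 and 3.52 in control replicates 1 and 2. Hoxd13 read 0.15 and -2.50 in the mutants and 0.25 and -0.54 in the controls. Their differences between genotypes were -1.18 ± 0.99 and -1.03 ± 0.87, and neither was called. Over the 5 of 8 distal Hox genes tested, the median difference was -0.23 within replicate number 1 and -1.96 within replicate number 2. Hoxd10 alone was called at an unadjusted p of 0.05 (-0.59 ± 0.22), where 3.98% of all genes were lower. The summed signal of these 5 genes was 23.8 and 3.69 times the 75th percentile in the mutants and 30.8 and 12.9 times it in the controls. The part of sex and of the sampled stretch of colon in the gap between replicates was not tested.

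In a list of other genes of goblet and mucous cells, which encode secreted and intracellular proteins, several read lower in the mutants. Of 20 such genes, 13 were tested, 7 were lower at an unadjusted p of 0.05 and 0 were higher, where 3.98% of all genes were lower and 5.31% higher. None passed the adjusted threshold, and the median difference was -0.66. Both mutants lay below both controls for 8 of the 13, against 17.6% of all genes. Rep15, an effector of Rab15, read 3.40 and 3.62 in the mutants, against 4.33 and 4.46 in the controls (-0.88 ± 0.13, adjusted p = 0.417). Klk1, tissue kallikrein, read 4.89 and 5.19 in the mutants and 5.78 and 5.76 in the controls (-0.73 ± 0.13, adjusted p = 0.418). Sytl2, which tethers secretory granules to the plasma membrane, read -0.26 and -0.12 in the mutants and 0.58 and 0.42 in the controls (-0.69 ± 0.14, adjusted p = 0.418). In each of these 3 genes the controls lay together and the mutants lay together, with a clear gap between them.

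The other 4 called genes of that list, named after their values were seen, were the calpain Capn9 (-0.88 ± 0.20), Fer1l6 (-0.99 ± 0.31), Bcas1 (-0.58 ± 0.15) and the chemokine Ccl6 (-0.40 ± 0.13). Of the 7 called genes Klk1 and Ccl6 encode secreted proteins, while other secreted products of the list, such as Itln1, were not called. The count of 7 was 4 without mutant replicate 1 and 4 without control replicate 2. The differences of these 13 genes had a median of -0.59 within replicate number 1 and -0.57 within replicate number 2. The summed signal of the list was 315 and 472 times the 75th percentile in the mutants and 444 and 616 times it in the controls, so the sums of the genotypes overlapped. Such a sum is carried by the brightest genes, and both mutants lay below both controls for 8 of the 13. No probe of Muc5ac, Muc5b, Muc6, Tff1, Tff2, Agr3 or Bpifb1, several of them products of gastric and airway mucous cells, passed the filter on dim probes. The difference between this list and the 10 genes was not tested.

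**Figure D4:**
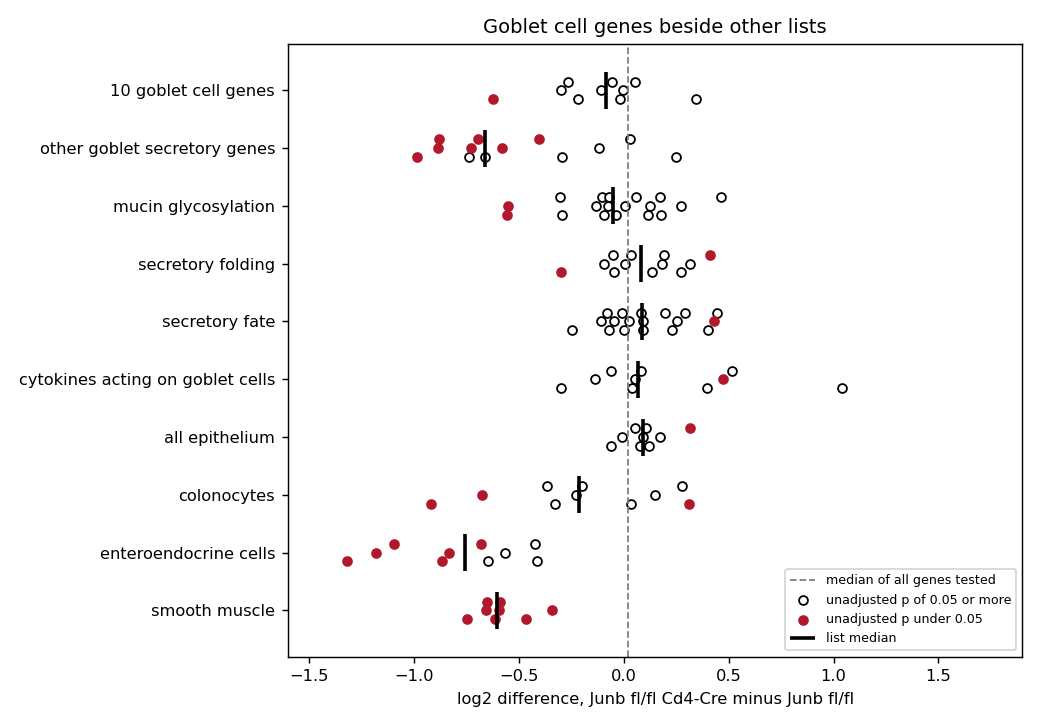
Each point is the log2 difference, Junb fl/fl Cd4-Cre minus Junb fl/fl (x axis), of 1 gene in 10 lists (y axis); red points have an unadjusted limma p under 0.05, bars are list medians and the dashed line is the median of all genes tested. The 10 goblet cell genes centre on -0.08, the other goblet secretory genes on -0.66, and the genes of all epithelium on 0.09.

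Most enzymes that build the sugar chains of mucins were not called. Of 20, 18 were tested, and 2 were lower and 0 higher at an unadjusted p of 0.05, where 3.98% of all genes were lower and 5.31% higher. The median was -0.05. B3gnt6, the core 3 synthase of mucin sugar chains, read 1.08 and 1.08 in the mutants, against 1.67 and 1.60 in the controls (-0.56 ± 0.11, unadjusted p = 0.00365, adjusted p = 0.418). Both controls lay above both mutants. The sialyltransferase St3gal6 differed by -0.55 ± 0.21 (unadjusted p = 0.0452) and by -0.28 without mutant replicate 2, and its relative St3gal4 by 0.27 ± 0.13, which was not called.

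Of 12 secretory folding genes tested, 1 was higher and 1 was lower at an unadjusted p of 0.05, which is near the shares of all genes (5.31% and 3.98%), and the median was 0.08. Ern2, the stress sensor IRE1-beta of goblet cells, read 4.54 and 4.61 in the mutants and 4.98 and 4.77 in the controls (-0.30 ± 0.12, unadjusted p = 0.0494), and it differed by -0.20 without control replicate 1. Sec61b, a subunit of the general translocon, differed by 0.41 ± 0.11 (unadjusted p = 0.011), and the chaperone Hspa5 by 0.27 ± 0.11 (unadjusted p = 0.0513). Of these, Ern2 is the gene restricted to mucus-secreting epithelium, and the other 2 are made by all cells.

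Among factors of secretory fate and identity none was called lower. Of 20 genes, 18 were tested, and 1 was higher and 0 lower at an unadjusted p of 0.05, where 5.31% of all genes were higher and 3.98% lower. The median was 0.09. The higher gene was Cdx2, a master factor of intestinal identity, with 4.78 and 5.004 in the mutants and 4.39 and 4.53 in the controls (0.43 ± 0.13, unadjusted p = 0.0181, adjusted p = 0.439). The epithelial factor Elf3 (0.25 ± 0.10) and the Notch ligand Dll1 (0.40 ± 0.17) had positive differences that were not called.

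Of the cytokines and receptors that act on goblet cells, 10 of 16 were tested. At an unadjusted p of 0.05 Il4ra alone was higher and none was lower, where 5.31% of all genes were higher and 3.98% lower. Il4ra, the receptor chain shared by the type 2 cytokines IL-4 and IL-13, read 1.72 and 1.72 in the mutants and 1.13 and 1.36 in the controls (0.47 ± 0.13, adjusted p = 0.428). Il22 (1.04 ± 0.62) and Il33 (0.52 ± 0.35) overlapped between genotypes. Il4, Il13, Il25, Tslp, Il9 and Il9r had no probe that passed the filter.

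Marker genes of other cells in the same RNA were set beside these values. At an unadjusted p of 0.05, 5.31% of all genes were higher and 3.98% lower. Markers of the epithelium as a whole were not called lower in the mutants: of 9 pan-epithelial genes 7 had a positive difference, 1 was called (Cldn7, 0.32 ± 0.11), and Epcam and Lgals4 differed by 0.12 ± 0.11 and 0.17 ± 0.12. Their summed signal was 1110 and 1181 times the 75th percentile in the mutants and 1068 and 1054 times it in the controls, while that of the 10 goblet cell genes was 1454 and 1784 times it in the mutants and 1699 and 1889 times it in the controls. With arrays scaled on the 9 epithelial genes, an alternative chosen after seeing the data, Fcgbp differed by -0.72 and Zg16 by -0.39, and both had an unadjusted p under 0.05. That scaling moved the median of all genes to -0.08.

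Colonocyte genes went in both directions, with 2 lower (Cyp2c55, -0.92 ± 0.24, and the water channel Aqp8, -0.68 ± 0.26) and 1 higher (Guca2b, 0.31 ± 0.12) of 10. Of all genes, 3.98% were lower and 5.31% higher. Without mutant replicate 1 the difference of Cyp2c55 was -0.57 and that of Aqp8 was -0.31, and without mutant replicate 2 that of Aqp8 was -1.05. Enteroendocrine genes, products of another secretory cell that descends from Atoh1-expressing progenitors, had negative differences in 10 of 10, and 6 were called, where 3.98% of all genes were lower. Chga, a granule protein of these cells, read 2.87 and 3.03 in the mutants and 4.18 and 4.08 in the controls (-1.18 ± 0.11, adjusted p = 0.373), Chgb differed by -1.09 ± 0.14, and the hormone gene Pyy by -0.87 ± 0.17. None of 7 tuft cell genes was called (Trpm5 -0.74 ± 0.33, Sh2d6 -0.63 ± 0.27, Avil -0.34 ± 0.28). Of 5 deep crypt secretory genes, Mptx2 alone was called (-1.42 ± 0.23), while Itln1, which also stands in the list of other goblet proteins, differed by -0.73 ± 0.70 and Kit by -0.36 ± 0.24.

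Smooth muscle genes were lower in 8 of 8 at an unadjusted p of 0.05, where 3.98% of all genes were lower and 5.31% higher. Their median was -0.60 (Acta2 -0.59 ± 0.12, Des -0.66 ± 0.12, Smtn -0.59 ± 0.10). Their summed signal was 298 and 287 times the 75th percentile in the mutants and 388 and 425 times it in the controls. Of 8 leukocyte genes the neutrophil genes S100a8 (2.24 ± 0.78) and S100a9 (2.24 ± 0.88) were higher, and Cd3e, a chain of the T cell receptor complex, differed by -0.32 ± 0.16. The difference of S100a8 was 1.25 without mutant replicate 2 and 1.49 without control replicate 1, and that of S100a9 was 1.29 and 1.22 without the same arrays. The gastric gene Gkn1 was well above background on the 2 mutant arrays and not in the controls, so it passed the filter only through the mutants. It was at least 1.75-fold higher there, a value that is no independent test of its direction. Of 8 gastric and pancreatic genes 6 did not pass the filter, and Atp4a differed by 0.29 ± 0.60. None of the genes in these lists passed the adjusted threshold. The part of the makeup of the tissue in the values of Fcgbp and the other goblet genes was not tested.

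By the shape of its values over the 4 arrays, Muc2 had no distinctive partner. The genes with the smallest Euclidean distance to its brighter probe, each gene centred on its own mean, were Poli (0.00999), Pacs2 (0.0174) and Amotl2 (0.0174), none of them in the goblet cell lists. In all, 373 of 14434 genes with a RefSeq symbol lay within a distance of 0.1, so with 4 arrays this likeness separates few genes.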

How the data were processed

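Per the labels, total RNA of whole colon was labelled with Cy3 and hybridised to 4 one-colour Agilent arrays, 2 for each genotype. The deposited intensity values are linear scanner output, for which the file headers name Agilent Feature Extraction 11.5.1.1. In these the processed signal is background-subtracted and detrended within the array, and no normalization between arrays is recorded. The 62976 spots of an array included 59305 non-control spots (56605 probes), and 27939 to 29091 probes were well above background. The arrays shared 1 slide and 1 scan.

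The log2 processed signal minus the array's 75th percentile was averaged over clean spots, which excluded 11 probes. The filter kept probes flagged well above background on 2 or more arrays, and the brightest stood for its gene. Differences were fitted with limma 3.58.1 in R 4.3.3 (intensity trend, two-sided, no block) with Benjamini-Hochberg adjustment over 19325 genes, or 28897 probes. Of the member probes, 11 of 12 carry an accession that RefSeq pairs with the member's symbol. The number of arrays limits the precision. The fits were tested on simulated data. For a gene below background in a whole group the fold is a bound, the bright group's mean over the higher of the dim group's signal and the lowest signal well above background.

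The 10 genes and the lists of other genes were chosen with earlier results of these data known. Besides the 10 genes and the checks, the rule named up to 3 tested genes of each list with the smallest p and the 3 genes most like Muc2. Alternatives were normexp correction (offset 50), quantile normalization, no filter or a filter on all 4 arrays, the mean of a gene's probes, the replicate number as a block, no intensity trend, a floor on dim signals, leaving out each array and, added later, scaling on epithelial genes.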

Additional observations from a re-analysis of the deposited data

Results flagged for a closer look

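The genotype difference had the same sign within both replicate numbers for 7 of the 10 goblet cell genes. It had opposite signs for Muc2 (brighter probe), Spdef and Spink4. Opposite signs occurred in 6683 of 19325 genes (34.6%), a share close to that of the members. By Xist and Eif2s3y the replicate numbers separate the female from the male samples. With 1 array on each side the contrast between the replicate numbers was not tested. Given as the difference within replicate number 2 minus that within replicate number 1, on the log2 scale, it was 0.263 for the brighter Muc2 probe (0.12 and -0.15), 0.182 for Spdef (0.03 and -0.15) and -0.0403 for Spink4 (-0.02 and 0.02). The gaps between replicates of these genes, in mutants and controls, were 0.20 and -0.06 for Muc2, 0.18 and -0.00 for Spdef, and 0.58 and 0.62 for Spink4. Among the other genes named, it was 0.213 for Clca4a, 0.910 for Kit (0.10 and -0.81) and 1.16 for Atp4a (0.87 and -0.29).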

How the results depend on the processing

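Of the 10 genes, 0 passed the adjusted threshold under any of the 13 alternatives, and Fcgbp kept an unadjusted p under 0.05 in all 13. The replicate number is not described in the labels as a pairing. With it as a block, the adjusted threshold was passed by 46 genes and the unadjusted one by 3382, 4 members had an unadjusted p under 0.05 (limma p = 0.000284 for Fcgbp, 0.0128 for Zg16, 0.0133 for Tff3 and 0.0103 for Retnlb, where 17.5% of all genes did), 10 of the other goblet secretory genes were lower, and deviations of same-numbered arrays correlated at 0.239. Without a filter on dim probes 3607 genes passed the unadjusted threshold, and with 1 array left out 864 to 2167 did. Members with an unadjusted p under 0.05 numbered 4 with quantile normalization (Fcgbp, Zg16, Clca1 and Tff3, where 8.84% of all genes did), 2 with scaling on epithelial genes (9.77% of all genes) and 1 to 2 with 1 array left out (4.47% to 11.2% of all genes), and the other goblet secretory genes called lower numbered 4 to 8. Agr2 changed sign to -0.17 with quantile normalization and -0.042 with scaling on epithelial genes. With 1 array left out, the differences ranged over -0.12 to 0.086 for Muc2, -0.24 to 0.018 for Clca1, -0.31 to 0.31 for Spink4, -0.00017 to 0.11 for Agr2, -0.050 to 0.74 for Retnlb and -0.15 to 0.033 for Spdef, so the sign of these 6 rests on single arrays, and the cause was not tested. Those of Fcgbp (-0.72 to -0.52), Zg16 (-0.49 to -0.11), Tff3 (-0.47 to -0.06) and Atoh1 (-0.39 to -0.05) kept theirs. A lone array left in a group is taken to vary like the other group. Among the other genes named, 8 of 621 alternative values changed sign, Atp4a being at -0.27 with a floor on dim signals. The others, with 1 array left out, ranged over -0.097 to 0.82 for Clca3a2, -1.56 to 0.090 for Itln1, -2.61 to 0.26 for Hoxb13, -2.35 to 0.29 for Hoxd13 and -0.47 to 1.06 for Atp4a. Also, for Chga, S100a8 and S100a9 the block gave an adjusted p under 0.05. No block for slide or scan was run, as all arrays shared 1 slide and 1 scan.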
